A study of Sus scrofa with 6 samples.

Results

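The peptide hormones relaxin (RLN2) and insulin-like 3 (INSL3), the prohormone convertase PCSK1, angiotensinogen (AGT) and the luteinizing hormone receptor (LHCGR) were followed across sow ovary and uterus. Every probe set whose only platform gene symbol was RLN2, INSL3, PCSK1, AGT or LHCGR was taken, which gave 6 of 23999 probe sets for 5 of 6567 named genes. LHCGR had 2 probe sets and the other genes 1 each. The study placed RNA from ovary and from tissue labelled myometrium, the muscular wall of the uterus, on 6 single-channel Affymetrix arrays, 1 for each tissue and stage. The stages were non-pregnant (NP), early pregnant (EP) and late pregnant (LP). The design counted 9 pigs, 3 per stage, and neither the breed, the age, the day of pregnancy nor the cycle stage of the non-pregnant sows is given in the sources used here. The labels do not say if the RNA on an array came from 1 sow or from several, and each group had 1 array and no replicates.

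The corpus luteum forms from the ovulated follicle and secretes progesterone and peptide hormones. In the pig it is the main source of relaxin, which loosens the birth canal and quietens the uterus. Relaxin is made as a prohormone of B chain, C peptide and A chain, and convertases of the PCSK family cut out the C peptide. INSL3 is a related peptide of theca and luteal cells. Luteinizing hormone acts on these cells through LHCGR, and angiotensinogen is the precursor from which renin releases angiotensin.

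The values were MAS5 signals, which are linear intensities, and every array had a mean of 500.1 after trimming 2% of probe sets at each end. Signals under 81.7, the 40th percentile of all signals, were raised to that floor before log2 was taken, and ratios against the floor are given as "at least". Labels were checked against lists of marker genes. Of 11 epithelial markers, 10 were higher on the uterine arrays and 0 in ovary, beside 354 of all 15882 tested probe sets higher in uterus. Of the 11, 5 lay below the floor on every ovary array, so they could only be higher on the uterine arrays. EPCAM, above the floor throughout, read 191.3, 131.9 and 104.3 on the NP, EP and LP ovary arrays and 10256, 10845 and 9667 on the uterine arrays. Of 10 smooth muscle markers, 0 passed limma's test between tissues (6 at an unadjusted p under 0.05), and their median log2 difference, ovary minus uterus, was 0.89. The arrays labelled myometrium are therefore called uterine arrays below. The hybridisation controls of the NP ovary array stood 0.47 over the 6-array mean (log2), while those of the remaining arrays stood at -0.23 to 0.06. The poly-A controls stood 0.51 over their mean on the NP ovary array and at -0.42 to 0.24 on the remaining arrays.

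RLN2, which encodes relaxin, gave a strong signal in ovary and lay near the floor in uterus. Its signal was 11029, 31899.6 and 29660.1 on the NP, EP and LP ovary arrays. On the uterine arrays it was 118.5, 150.4 and 75.4 at the same stages. The lowest ovary signal lay far above the highest uterine signal. INSL3 read 3994, 4552 and 3723 on the NP, EP and LP ovary arrays and 26.4, 52.3 and 43.4 on the uterine arrays, where each value lay below the floor. Its ovary signals were alike at the 3 stages.

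The brighter LHCGR probe set read 2479.9, 3762 and 3309.5 on the NP, EP and LP ovary arrays and 11.2, 25.1 and 41.4 on the uterine arrays. The dimmer one read 942, 1599.5 and 1399 on the ovary arrays and 44.4, 71.1 and 46.2 on the uterine arrays. Both probe sets of the receptor thus had the same order of stages in ovary, EP above LP above NP, and neither passed the floor in uterus.

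PCSK1 and AGT behaved differently. PCSK1 lay below the floor on the NP ovary array at 65.5 and read 4848 on the EP and 7917 on the LP ovary array. On the uterine arrays it read 2.7, 19.5 and 226, so only the LP array passed the floor. AGT read 314.5, 1045 and 1789 from NP through LP in ovary and 338, 1614 and 1305 in uterus. It was the only member above the floor on all 6 arrays, and the only member whose ovary and uterine signals overlapped in full.

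**Figure D1:**
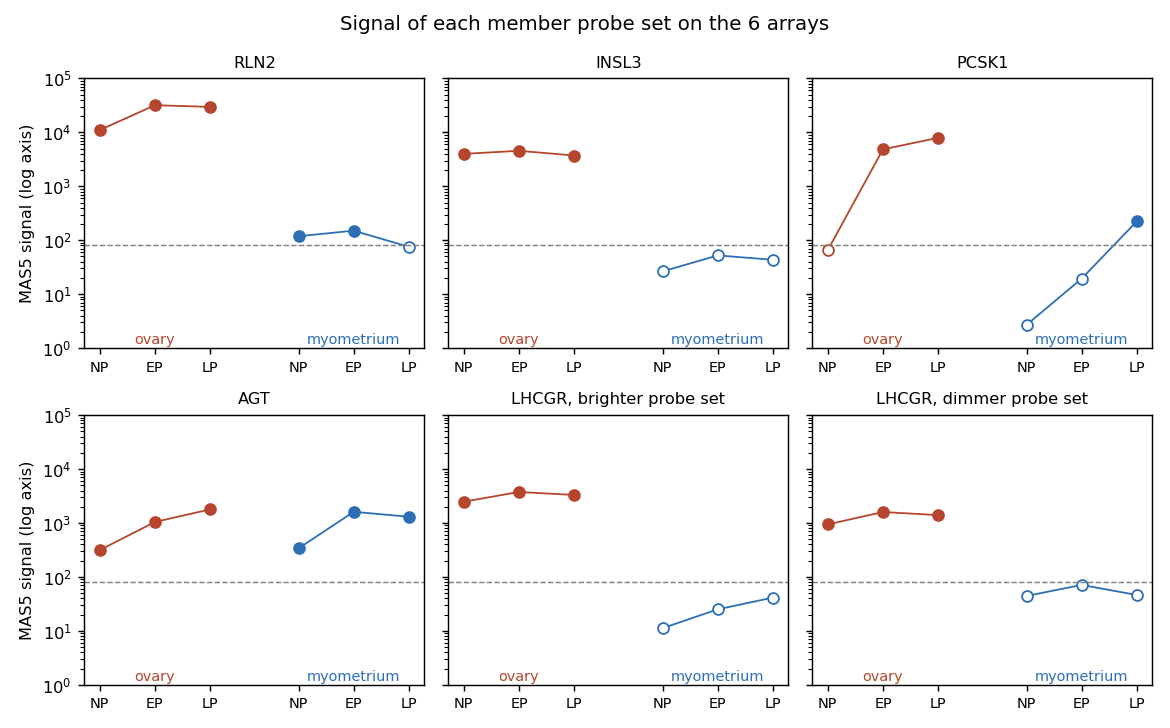
MAS5 signal (log axis) of the 6 probe sets on the NP, EP and LP arrays of ovary (red) and of tissue labelled myometrium (blue), 1 array per point, with the floor of 81.7 as a dashed line and open points below it. RLN2, INSL3 and LHCGR separate the tissues at every stage, PCSK1 reads 65.5 on the NP ovary array and 4848 and 7917 on the pregnant ovary arrays, and AGT is lowest on the NP array of each tissue.

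Between the tissues, RLN2 was higher in ovary, INSL3 and LHCGR were measured in ovary alone, and PCSK1 and AGT did not pass the test. RLN2 averaged 24196 ± 11458 in ovary and 115 ± 37.6 in uterus (SD, n = 3 arrays of different stages). Its log2 difference, ovary minus uterus, was 7.59 ± 0.40 (SE, limma, adjusted p = 0.00358), higher in ovary at 3 of 3 stages. The LP uterine signal of RLN2 was raised to the floor, so this difference is a lower bound. INSL3 and both LHCGR probe sets met the filter on low signals through their ovary arrays alone, so they had to differ. Their 3 uterine values are 1 constant, the floor, which adds no spread to the residual, and their p-values are given as a description. INSL3 averaged 4089.6 ± 423 in ovary and 40.7 ± 13.2 in uterus and was at least 49.9-fold higher in ovary (adjusted p = 0.00358, limma). The brighter LHCGR probe set averaged 3184 ± 650.2 in ovary and 25.9 ± 15.1 in uterus, at least 38.4-fold higher in ovary (limma, adjusted p = 0.00358). The dimmer averaged 1314 ± 337 and 53.9 ± 14.9, at least 15.7-fold higher (limma, adjusted p = 0.00684).

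For PCSK1 the averages were 4277 ± 3957 in ovary and 82.8 ± 124 in uterus. The log2 difference of 3.67 ± 1.13 (SE) did not pass (limma, adjusted p = 0.137). On the NP pair of arrays PCSK1 lay below the floor in both tissues. Its log2 difference was at least 5.89 on the EP pair and 5.13 on the LP pair. This variation between stages enters the residual and widens the SE. The additive fit therefore cannot test a tissue difference of PCSK1 that is present at some stages only. AGT averaged 1049.5 ± 737 in ovary and 1086 ± 666 in uterus, and its log2 difference of -0.09 ± 0.30 (SE) did not pass (limma, adjusted p = 0.891).

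The fit called 4 of the 6 probe sets in the direction of ovary, 3 of them with every uterine value at the floor, beside 2.84% of all 15882 tested probe sets (5.07% in either direction). Nothing is read from that count. The fit held tissue and stage as additive terms. As no group had replicates, its residual is the change in the tissue difference from stage to stage. The p-values rest on this spread over 6 arrays, not on spread between sows. Without the EP pair of arrays 0 probe sets of the whole table passed (1790 at an unadjusted p under 0.05), and the 4 probe sets had adjusted p-values of 0.0779 to 0.131 by limma. Leaving out only the EP ovary or only the EP uterine array also gave 0 members, as did the fit without the filter on low signals. Without the NP pair PCSK1 passed too, at a log2 difference of 5.51 (limma, adjusted p = 0.0255).

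At single stages, without a test, RLN2 was 93.1-fold higher in ovary than in uterus on the NP arrays, 212-fold on the EP arrays and at least 363-fold on the LP arrays. PCSK1 was at least 59.3-fold higher in ovary on the EP arrays and 35.0-fold on the LP arrays. AGT was 1.08-fold lower in ovary on the NP arrays, 1.54-fold lower on the EP arrays and 1.37-fold higher on the LP arrays. At 2-fold or more, 4 of 5 measured probe sets were higher in ovary at NP, 5 of 6 at EP and 5 of 6 at LP, beside 8.74%, 12.4% and 12% of the measured table. In the direction of uterus it was 0 at each stage, beside 8.67%, 10.6% and 12.6%. INSL3 and both LHCGR probe sets, and PCSK1 at EP, counted as measured through the ovary array alone. They could only fall on the ovary side, so nothing is read from these counts.

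**Figure D2:**
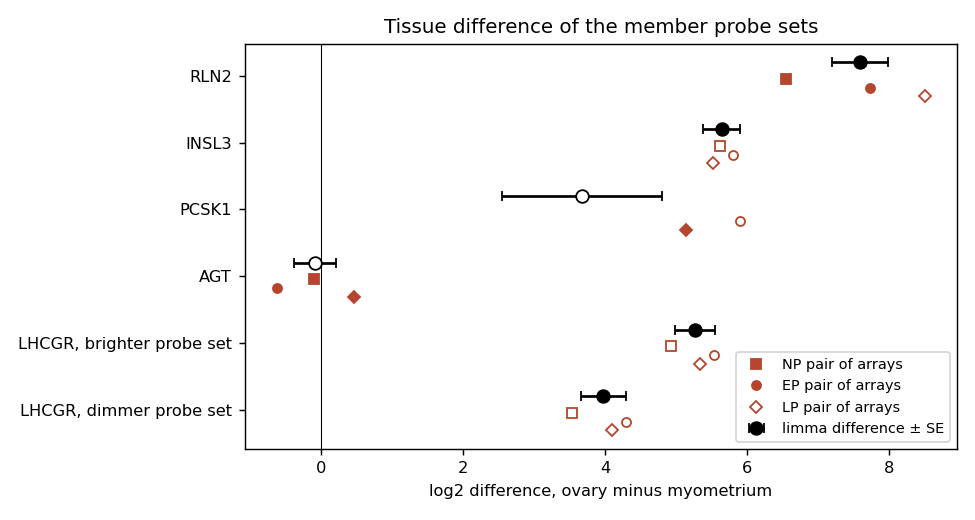
Log2 difference, ovary minus tissue labelled myometrium, of each probe set: black points with SE bars are the limma fit over 6 arrays (filled where adjusted p is under 0.05), and red points are the single NP, EP and LP pairs of arrays (open where 1 side lies at the floor, so that the value is a bound). RLN2, INSL3 and LHCGR lie between 3.97 and 7.59 in the fit, PCSK1 has the widest error and AGT lies at -0.09.

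The design grouped sows to find genes that differ between stages. In ovary, RLN2, PCSK1 and AGT were higher on the pregnant arrays, whereas INSL3 stayed within the technical SD described next and LHCGR was below 2-fold. Each ratio compares single arrays, so there is no test and no replicate error. As a technical measure, genes with several probe sets were used, and the log2 ratio of a gene's brightest probe set was compared with that of its second brightest. Between the EP and NP ovary arrays they differed with an SD of 0.45 over 1283 genes, and between the LP and NP ovary arrays with an SD of 0.48 over 1271 genes. This SD holds no variation between animals.

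PCSK1 was at least 59.3-fold higher on the EP and at least 96.9-fold higher on the LP than on the NP ovary array. AGT was 3.32-fold and 5.69-fold higher, and RLN2 2.89-fold and 2.69-fold. The log2 ratios of AGT, 1.73 and 2.51, were 3.84 and 5.24 times the technical SD, and those of RLN2, 1.53 and 1.43, were 3.40 and 2.98 times. Among probe sets above the floor on both arrays, AGT ranked 49th and RLN2 75th of 13655 in the EP to NP comparison. In the LP to NP comparison AGT ranked 28th and RLN2 131st of 13290. Thus 3 of 6 member probe sets passed 2-fold upward at EP and 3 of 6 at LP, beside 2.45% and 2.92% of the measured table. In the opposite direction it was 0 of 6 at both stages, beside 2.15% and 3.65%.

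The log2 ratio of INSL3 was 0.19 at EP and -0.10 at LP against NP, within the technical SD. That of LHCGR was 0.60 and 0.42 by the brighter probe set and 0.76 and 0.57 by the dimmer one, between 0.87 and 1.69 times the technical SD. Both probe sets read higher on the pregnant arrays, by less than 2-fold.

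Between late and early pregnancy 0 of 6 probe sets reached 2-fold in ovary in either direction, beside 1.5% of the measured table that were higher and 2.71% that were lower. PCSK1 was 1.63-fold and AGT 1.71-fold higher on the LP ovary array, and the log2 ratio of PCSK1, 0.71, was 1.82 times the technical SD of 0.39. RLN2 was 1.08-fold lower at LP, within that SD. PCSK1 and AGT therefore had their highest ovary signal at LP, and RLN2, INSL3 and LHCGR theirs at EP, by a margin over LP that lay within the technical SD.

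**Figure D3:**
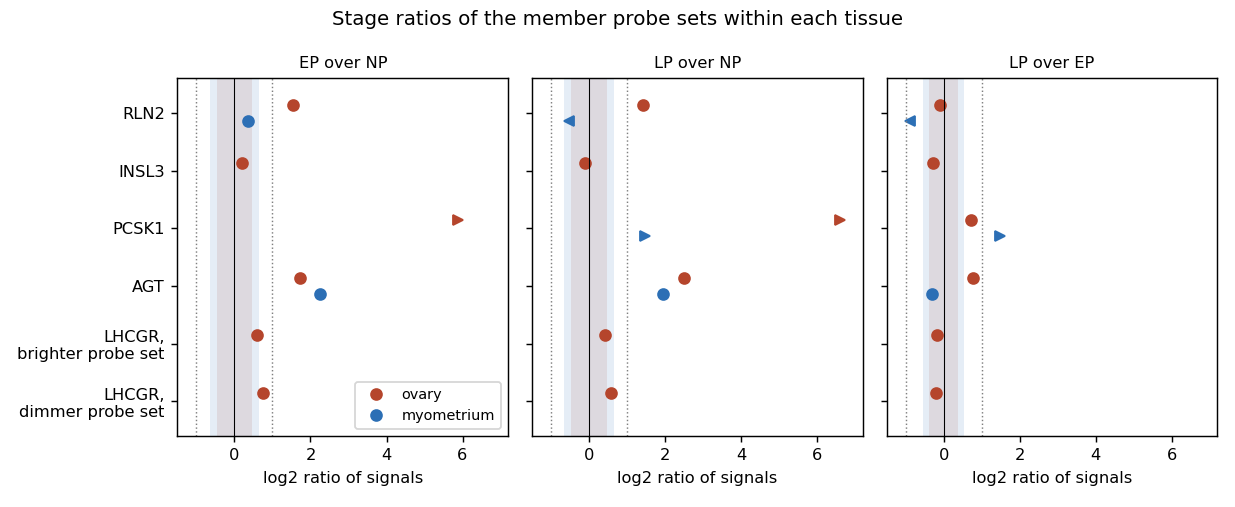
Log2 ratio of signals between stages for each probe set in ovary (red) and tissue labelled myometrium (blue); triangles are bounds with 1 array at the floor, and probe sets below the floor on both arrays are not drawn. The shaded bands are the technical SD of each tissue (0.45 in ovary and 0.64 in uterus for EP over NP) and dotted lines mark 2-fold; RLN2, PCSK1 and AGT lie beyond 2-fold in ovary at both pregnant stages, and AGT also in uterus.

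In uterus, AGT was 4.77-fold higher on the EP and 3.86-fold higher on the LP than on the NP array, which are log2 ratios of 2.25 and 1.95. PCSK1, below the floor at NP and EP, was at least 2.77-fold higher on the LP array. RLN2 was 1.27-fold higher on the EP than on the NP array there. On the LP array it lay under the floor, at least 1.45-fold below NP and at least 1.84-fold below EP. These bounds neither reach 2-fold nor exclude it. INSL3 and LHCGR lay below the floor throughout. At 2-fold or more, 1 of 2 measured probe sets was higher at EP and 2 of 3 at LP against NP, beside 8.76% and 10.9% of the measured table. Between LP and EP it was 1 of 3, PCSK1, beside 5.87%. No member was counted as 2-fold or more lower in these 3 comparisons, beside 10.3%, 12.6% and 5.62%, with RLN2 at LP a bound. With the floor at the 60th percentile PCSK1 was not measured in uterus, and those 2 counts with PCSK1 were 1 and 0.

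AGT, the only member above the floor throughout, had the largest stage difference shared by the tissues in relation to its error. In the additive limma fit it was 1.99 ± 0.37 for EP minus NP and 2.23 ± 0.37 for LP minus NP (SE, log2). Neither passed (limma, adjusted p = 0.822 and 0.711), although the unadjusted limma p was 0.00183 and 0.00105. In that fit 0 of 15882 probe sets passed in any stage contrast, with 686 for EP minus NP and 964 for LP minus NP at an unadjusted p under 0.05.

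Marker genes also differed between the ovary arrays, with stage patterns that varied from list to list. Of the measured table, 2.45% were 2-fold or more higher at EP and 2.92% at LP than at NP, and 2.15% and 3.65% lower. Of 10 leukocyte markers, 4 were 2-fold or more lower at EP and 4 at LP than at NP, and their summed signal was 7016, 3815 and 3611 on the NP, EP and LP arrays. Of 10 smooth muscle markers, 5 were 2-fold or more higher at EP than at NP and 0 at LP, with sums of 49477, 62379 and 38929. Granulosa markers summed to 29429, 18469 and 28172, and INHA and FST, the 2 of 8 measured that were 2-fold or more lower at EP, read 2465 and 2005 there. The luteal steroid markers summed to 101433, 92731 and 112421, and 1 of 11 was 2-fold or more higher at EP and 2 of 11 at LP than at NP. These were the prostaglandin F receptor PTGFR at both stages, with 6982, 14853 and 16721, and VEGFA at LP, with 1172, 1979 and 2865. RNA integrity was read from GAPDH, whose 3' signal exceeded its 5' signal by 2.33, 1.99 and 1.51 times, and from actin, with 3.38, 2.56 and 3.22 times. The part of these, and of the higher control signals of the NP ovary array, in the ratios of RLN2, PCSK1 and AGT was not tested. In tissue samples, fewer cells of a type and less RNA per cell cannot be told apart.

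Steroid synthesis genes gave strong signals on the pregnant uterine arrays, where RLN2, INSL3 and LHCGR lay near or below the floor. STAR, which carries cholesterol into mitochondria, read 13.2, 5573 and 6907 on the NP, EP and LP uterine arrays. CYP11A1, which makes pregnenolone, read 22.1, 1502 and 4452, and HSD3B1, which makes progesterone, read 64.1, 3101 and 1822. On the same 3 arrays INSL3 and LHCGR stayed below the floor and RLN2 read at most 150.4. The other members differed: AGT read 338, 1614 and 1305 there, and PCSK1 passed the floor at LP alone, at 226. Of 10 measured luteal steroid markers, 5 were 2-fold or more higher on the EP and 7 on the LP than on the NP uterine array, and 1, the progesterone receptor PGR, was lower in both. Of the measured table, 8.76% and 10.9% were higher and 10.3% and 12.6% lower in these 2 comparisons. The 5 trophoblast markers with a probe set summed to 624, 5613 and 11365 on the uterine arrays. PEG10 alone read 351, 435 and 8302 there, GATA3 read 59.2, 3168 and 2778, and IFNG read 74, 1719.6 and 64.8. Between LP and EP, 1 of the 5 was 2-fold or more higher and 1 lower, beside 5.87% and 5.62% of the measured table. The median log2 ratio of the 5 was -0.19. Their part in the steroid signals was not tested.

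PCSK1 belongs to a wider prohormone processing system. Of the 5 tested genes of the processing list, 1 was higher in ovary, 0 in uterus and 4 did not pass; their median log2 difference was 0.02, beside 0.01 over all tested probe sets. The gene that passed was PAM, the enzyme that amidates peptide hormones, with a log2 difference of 1.08 ± 0.18 (SE, limma, adjusted p = 0.0336). PAM read 2968, 5993 and 6765.5 on the NP, EP and LP ovary arrays and 1503, 2928 and 2918 on the uterine arrays. It was 2-fold or more higher on both pregnant ovary arrays than on the NP one, with log2 ratios of 1.01 and 1.19. PCSK1N, which encodes the PCSK1 inhibitor proSAAS, read 154.8, 232 and 384 on the ovary arrays, a log2 ratio of 1.31 at LP against NP. The convertase PCSK2 lay below the floor on all 6 arrays, and PCSK7 read between 128.7 and 156.9 in ovary.

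Of the 7 tested secretory granule genes, 1 was higher in ovary, 0 in uterus and 6 did not pass, with a median log2 difference of 0.24. SCG5, a granule protein that acts as a chaperone for PCSK2, read 1345, 1375 and 1968 on the ovary arrays and 314, 80.7 and 116.3 on the uterine arrays. Its log2 difference was 3.42 ± 0.47 (SE, limma, adjusted p = 0.0209), with the EP uterine signal just under the floor. The granins CHGA and CHGB lay below the floor on every uterine array and read at most 163.8 in ovary. RAB3A, a GTPase of secretory vesicles, had a log2 ratio of 1.16 between the LP and NP ovary arrays. CHGA was 2-fold or more lower at EP than at NP, with 163.8, 52.3 and 153.9 on the NP, EP and LP ovary arrays.

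None of the 11 tested genes of the renin-angiotensin list passed between tissues by limma, and their median log2 difference was -0.16. At an unadjusted limma p under 0.05 it was also 0 of 11. ENPEP, an aminopeptidase that trims angiotensin II, was the only one 2-fold or more higher on the pregnant ovary arrays. It read 120.8, 259 and 609.6 on the NP, EP and LP ovary arrays and 134.8, 498 and 217 on the uterine arrays. The receptor AGTR1 read 605, 986 and 659.8 in ovary and 1527, 1125 and 392 in uterus, so its lowest uterine signal was at LP, where AGT read 1305. ANPEP was 2-fold or more lower on the LP than on the EP ovary array. The 5 probe sets annotated as NLN disagreed widely in signal. The brightest of them is among the 11 tested genes and in their median, and NLN is not interpreted further.

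Of 11 tested genes of the gonadotropin receptor and cAMP list, 2 were higher in ovary, 0 in uterus and 9 did not pass, with a median log2 difference of 0.13. AREG, a ligand of the EGF receptor that luteinizing hormone induces in follicles, read 3762, 5330 and 6584 on the NP, EP and LP ovary arrays and 33.6, 153.7 and 59.7 on the uterine arrays. Its log2 difference was 5.66 ± 0.32 (SE, limma, adjusted p = 0.00358). The NP and LP uterine signals of AREG were raised to the floor, so this difference is a lower bound and its error is partly set by the floor. FSHR, the follicle-stimulating hormone receptor, read 337, 296 and 281 in ovary, lay below the floor in uterus and was at least 3.72-fold higher in ovary (limma, adjusted p = 0.0184). Like INSL3 it met the filter through ovary alone, with a constant floor in uterus, and the same limit holds. The catalytic subunit PRKACA read 353, 233.5 and 146.8 on the ovary arrays, a log2 ratio of -1.26 at LP against NP, and the phosphodiesterase PDE4B had a ratio of 1.02 at EP against NP. None of the 9 listed relaxin family peptides and receptors had a named probe set, so the receptors of relaxin and INSL3 were not analysed here.

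**Figure D4:**
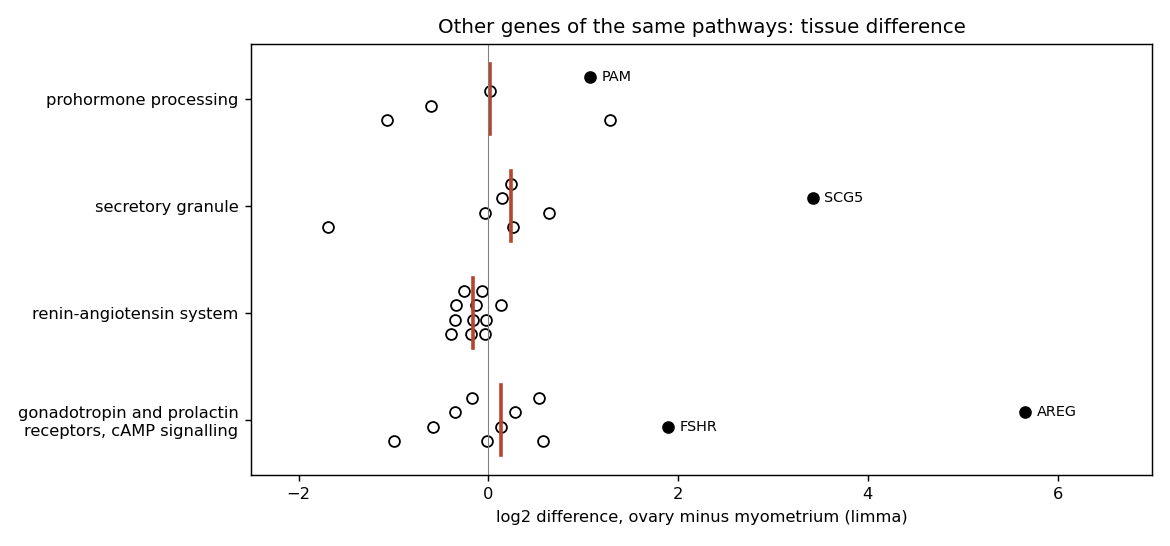
Log2 difference, ovary minus tissue labelled myometrium, of the other tested genes of 4 pathway lists, 1 point per gene, filled and named where adjusted p is under 0.05 by limma; red bars are list medians. PAM, SCG5, FSHR and AREG are higher in ovary, and the renin-angiotensin genes lie close to 0.

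The genes whose pattern over the 6 arrays was most like that of each member were found by the root mean square difference of centred log2 signals over 5673 genes. INSL3 and LHCGR were each other's nearest gene, at 0.25, but both sit at the floor on all 3 uterine arrays, which makes those values equal by construction. They were followed by NR5A2 for INSL3 at 0.36 and by AREG for LHCGR at 0.39. The nearest genes to RLN2 were SELENBP1 at 0.90, CYP19A3 at 1.01 and AREG at 1.03. SELENBP1 read 8560 on the NP ovary array, 19604 on the EP and 19835 on the LP one. CYP19A3 read 8691, 5060 and 7198 on these arrays, lowest at EP, where RLN2 was highest. AREG read 3762, 5330 and 6584 there. PCSK1 had no close neighbour, with PDLIM3 nearest at 1.40. AGT was nearest to VEGFA at 0.38, DNAJB4 at 0.41 and ENPEP at 0.43. These likenesses describe 6 arrays that differ in both tissue and stage.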

How the data were processed

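The authors deposited MAS5 signals, which are intensity values on a linear scale, for 24123 probe sets on 6 arrays, per the submitters' processing notes. MAS5 combines the probe pairs of each probe set, and the arrays had been scaled to a common trimmed mean, which hides changes in total RNA. Which MAS5 version they ran is not stated there. The 124 control probe sets were left out. Names came from the platform's annotation table, and all 6 member probe sets matched the current gene record by identifier. Gene positions and sequences were not analysed here. Per the labels, 6 ug of total RNA went into each labelling.

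Tissues and shared stage contrasts were tested with limma 3.58.1 (R 4.3.3) on floored log2 signals, with tissue and stage as additive terms and an intensity trend. A probe set was tested if 2 or more arrays exceeded the floor, with Benjamini-Hochberg adjustment over all 15882 and a threshold of 0.05. The fit has 2 residual degrees of freedom. It was tested on simulated data that had no floor and no stage effects, so that check does not cover signals raised to the floor. Stage ratios had 1 array a side and no test; a probe set counted as measured if either array exceeded the floor, and 2-fold or more was counted. For lists, the probe set with the highest mean signal stood for a gene. Named genes were the members, list genes past the tissue test or at 2-fold between ovary stages, and 3 nearest genes per member, with other values added as context. The members and lists were chosen with earlier results of these data known. The number of arrays limits the precision. Python 3.11.15 with numpy 2.4.6, pandas 2.3.3 and matplotlib 3.10.9 was used.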

Additional observations from a re-analysis of the deposited data

Results flagged for a closer look

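Between the LP and NP arrays, RLN2 had a log2 ratio of 1.43 in ovary and of -0.54 or below in uterus, where its LP signal of 75.4 lay under the floor. The signs are opposite, but the uterine bound is 0.82 times the technical SD. Between the LP and EP arrays, AGT had a log2 ratio of 0.78 in ovary and -0.31 in uterus, which are again of opposite sign, with the uterine value at 0.57 times the technical SD. Each side is 1 array, and neither difference was tested.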

How the results depend on the processing

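The tissue test called 4 member probe sets, and 0 without the filter on low signals, where limma gave each an adjusted p of 0.193; 2782 of 23999 had an unadjusted p under 0.05. Leaving out a pair of arrays or a single array gave 0 to 5 members, with 0 whenever an EP array was left out and 5 whenever an NP array was. With log2(signal + 16) and no floor PCSK1 passed as well (limma, adjusted p = 0.0345; 0.0255 to 0.586 over its alternatives). The floor at the 60th percentile gave 1 member in place of 2 at 2-fold or more between the LP and NP uterine arrays, and 0 in place of 1 between the LP and EP uterine arrays. The other 77 counts stayed within 1.5 times under the alternatives run, and no called value turned direction. Of the values of single probe sets, 264 kept their side or stayed within the technical SD, and 31 without a test moved beyond the technical SD, under the other floors or the pseudocount, since the bound follows the floor. In the tissue test, 16 further values no longer passed and 4 passed newly. Centring arrays on the median shifted the median of all probe sets by 0.14 in the EP to NP comparison of uterus, in which AGT then had 2.41, and by -0.13 between the EP arrays of ovary and uterus. The floor and the scaling limit what dim probe sets show. The fit already pairs the 2 arrays of a stage, and without the stage block 4 members passed. Pairing by replicate number was not possible because the labels give none and each group has 1 array.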

Other observations

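Some listed genes that did not pass between tissues differed widely between the single uterine arrays. CPM, a carboxypeptidase of the cell surface, read 365 on the NP, 2977 on the EP and 5137 on the LP uterine array, while on the ovary arrays it read 813.5, 844 and 873. CTSD, the lysosomal protease cathepsin D, read 768, 2761 and 6054 at NP, EP and LP in uterus and 2569, 1993 and 1905 in ovary. CREM, a transcription factor that responds to cAMP, read 3317, 9044.5 and 4428 on the uterine arrays and 2067, 2964 and 2725 on the ovary arrays. Each value is 1 array and none of these stage ratios was tested.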
